A study of Mus musculus with 16 samples.

Results

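The subject is the effect of losing TFEB in cardiomyocytes on gene expression in a left ventricle under pressure overload. It was read from 4 libraries of cKO-TFEB mice (cKO) and 4 libraries of WT mice, all after TAC (transverse aortic constriction, a surgical band that makes the ventricle pump against a narrowed aorta). These 8 libraries were chosen by their labels among the 16 of the series. The other 8, from cKO and WT mice after sham surgery, served to show where a difference between genotypes was also seen without overload, and entered the shared estimate of the spread. All mice were of strain C57/BL6N. The knockout is described as cardiomyocyte-specific, so by design Tfeb is left intact in the fibroblasts, vessels and immune cells of the same tissue. The Cre line, sex, age and time after surgery are not given in the sources used here, nor is it stated whether the WT mice carried a Cre or floxed alleles. The labels call the 4 libraries of each group biological replicates.

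TFEB belongs to the MiT family of transcription factors, with TFE3 and MITF. It binds a short palindrome inside CLEAR elements, which are common near the start sites of lysosomal genes, and it is known for switching on lysosomal and autophagy genes when nutrients are short or lysosomes are stressed. It is also linked to the transcription of the coactivator PGC-1alpha, which drives genes of mitochondria and fatty acid oxidation. The adult heart takes most of its energy from fatty acids burned in mitochondria, and an overloaded heart is known to reduce these genes while it raises fetal contractile genes, natriuretic peptides and matrix genes.

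The 8 TAC libraries held between 12946878 and 16347388 counts, and 15206 genes were tested. Principal components of the TAC libraries alone did not separate the genotypes fully. On the first, which held 35.8% of the variance, cKO TAC replicates 1, 2 and 4 scored -40.7, -28.5 and -12.6 and cKO TAC replicate 3 scored 3.26. WT TAC replicates 2, 3 and 4 scored between 25.5 and 28.8, and WT TAC replicate 1 scored -2.72. The libraries nearest to each other across genotypes were therefore cKO TAC replicate 3 and WT TAC replicate 1. WT TAC replicate 4 stood apart on the second component (-38.0) and held transcripts of other tissue. Its atrial markers other than Nppa summed to 1054 CPM (a gene's count scaled to the TMM-adjusted size of its library), against 64.3 to 107 CPM in the cKO TAC libraries and 65.0 to 73.2 CPM in the other WT TAC libraries. The atrial myosin light chain Myl7 was at 329 CPM in it and at most 0.242 CPM in the cKO TAC libraries. Its adipocyte gene Cfd was at 24.9 CPM. Cardiomyocyte markers were abundant in every TAC library, as the label left ventricle implies.

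Under TAC, 271 of the 15206 genes passed an adjusted p of 0.05 in edgeR's quasi-likelihood test (1.78%). Of these, 91 rose (0.598%) and 180 fell (1.18%) in cKO TAC relative to WT TAC. At an unadjusted p under 0.05 there were 2643 genes (17.4%). With libraries scaled by their totals only, 116 genes rose, 118 fell and the median over all genes was 0.098 log2. In a fit of the TAC libraries alone 73 rose and 79 fell. The excess of lower genes therefore depended on the scaling and on the libraries fitted. The 4 cKO TAC libraries all lay above the 4 WT TAC libraries for 78 of the 91 higher genes and all below them for 144 of the 180 lower genes, against 4.89% and 5.11% of all tested genes. Since these genes were chosen for passing in the same libraries, such separation follows in large part from the choice and is no separate support. The number of calls moved strongly when 1 library was left out. It was 13 without WT TAC replicate 2, 20 without WT TAC replicate 3, 28 without cKO TAC replicate 1, 20 without cKO TAC replicate 2, 39 without cKO TAC replicate 4 and 181 without WT TAC replicate 4. It was 522 without WT TAC replicate 1 and 912 without cKO TAC replicate 3, the libraries that lay nearest to the other genotype. Among the sham libraries, leaving out WT sham replicate 1 gave 508 and leaving out cKO sham replicate 4 gave 152. None of the 271 genes changed sign under any of these exclusions, which is likely beforehand for genes that passed with all libraries. Of 80 named genes that passed, Tfeb aside, 69 lost the call without WT TAC replicate 2, 67 without WT TAC replicate 3, 65, 62 and 58 without cKO TAC replicates 2, 1 and 4, 24 without WT TAC replicate 4, 7 without WT TAC replicate 1 and none without cKO TAC replicate 3. With the atrial marker sum as a covariate 66 of the 80 lost the call, and with the TAC libraries alone 49. The atrial sum includes Nppa, whose TAC groups did not overlap. With that sum without Nppa as the covariate, added after the data had been seen, 0 of the 80 lost the call. The adjusted p values given with single genes are examples of these losses.

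**Figure D1:**
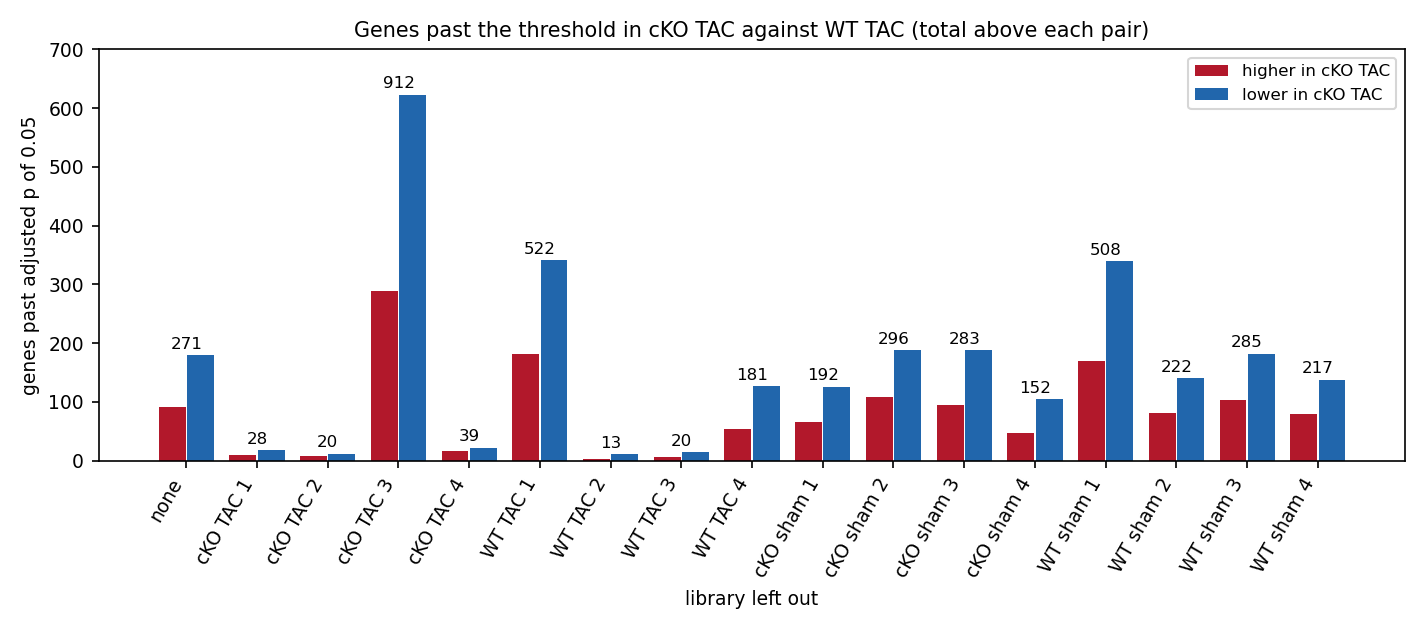
Number of genes past an adjusted p of 0.05 (edgeR) in cKO TAC against WT TAC, with all libraries (none) and with each of the 16 libraries left out; red bars are genes higher and blue bars genes lower in cKO TAC, and the total stands above each pair. The totals run between 13 and 912, against 271 with all libraries.

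Tfeb was the check of the labels. It measured 14.7, 13.8, 13.0 and 9.37 CPM in cKO TAC replicates 1 to 4, against 40.0, 34.6, 20.6 and 21.1 CPM in WT TAC. The groups did not overlap, and the WT TAC libraries fell into a high and a low pair. The log2 fold change was -1.19 (SE 0.20, edgeR adjusted p = 0.0138), and the exact two-sided permutation test gave p = 0.0286, the smallest that 4 against 4 libraries allow. Leaving out WT TAC replicate 2 raised the adjusted p to 0.0645. Its relative Tfe3 did not pass, at 22.1 ± 2.58 CPM in cKO TAC and 22.3 ± 0.53 CPM in WT TAC (SD, n = 4), with a sign that turned with the scaling. Mitf, the third member, measured 27.2, 23.1, 27.4 and 26.7 CPM in cKO TAC, against 31.3, 35.2, 35.3 and 31.4 CPM in WT TAC. Its groups did not overlap either, but it did not pass over all genes (log2 -0.35, SE 0.13, edgeR adjusted p = 0.148).

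A small set of genes passed however the data were handled. Of 80 named genes that passed under TAC, Tfeb aside, 10 stayed past the threshold in all 28 settings tried, which included leaving out each library. All 80 kept their direction, which is likely beforehand for genes chosen for passing. The 10 included Immp2l, Ctnna3, Dmd, Ppp2r3a, Rps6ka2, Dcakd, Fbp2, Clcn1 and Tmem150c, each of which was lower in cKO TAC. Immp2l, a peptidase of the inner mitochondrial membrane, had the smallest p of all genes. It measured 4.10, 4.04, 4.81 and 4.47 CPM in cKO TAC replicates 1 to 4, against 10.9, 13.6, 14.1 and 11.7 CPM in WT TAC. Every cKO TAC library held far less of it than any WT TAC library, and its level was 0.347 of WT TAC (log2 -1.53, SE 0.12, edgeR adjusted p = 3.27e-06).

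Both of the next genes belong to the junctions and membrane skeleton of the cardiomyocyte. Ctnna3, the alpha-T-catenin that anchors cadherins at the intercalated disc, measured 7.44, 6.32, 8.69 and 7.20 CPM in cKO TAC, against 15.8, 17.0, 16.2 and 20.1 CPM in WT TAC (log2 -1.22, SE 0.14, edgeR adjusted p = 0.000277). Dmd, which encodes dystrophin, the link between actin and the muscle cell membrane, measured 46.2, 34.4, 37.7 and 46.8 CPM in cKO TAC, against 96.9, 89.9, 88.5 and 86.4 CPM in WT TAC (log2 -1.13, SE 0.14, edgeR adjusted p = 0.000566). For both genes the highest cKO TAC library stayed well below the lowest WT TAC library. Of 24 tested genes of the dystrophin complex and intercalated disc, 3 rose (12.5%, against 0.598% of all genes) and 2 fell (8.33%, against 1.18%), and the list median was 0.05 against 0.00 for all genes. The 3 that rose were the desmosome gene Pkp2 (1.34-fold, SE 0.09 log2, edgeR adjusted p = 0.0242), the focal adhesion gene Tln2 (1.25-fold, SE 0.07) and the muscle filament gene Des (1.56-fold, SE 0.15). Pkp2 measured 209, 201, 210.4 and 227 CPM in cKO TAC, against 168, 150.1, 163 and 149 CPM in WT TAC. The adjusted p without WT TAC replicate 4 was 0.051 for Pkp2 and 0.0781 for Des, and that of Tln2 without WT TAC replicate 2 was 0.12. With 1 library left out, the highest edgeR adjusted p was 0.104 for Pkp2 and 0.148 for Des.

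The remaining genes of the set serve signalling, metabolism and excitability. Ppp2r3a, a regulatory subunit of the phosphatase PP2A, measured 111, 97.6, 134 and 139.9 CPM in cKO TAC, against 193, 246, 267 and 229 CPM in WT TAC (log2 -0.95, SE 0.13, edgeR adjusted p = 0.00322). Clcn1, the chloride channel of skeletal muscle, measured 0.505, 0.632, 1.13 and 2.18 CPM in cKO TAC, against 4.32, 8.02, 8.68 and 9.33 CPM in WT TAC (log2 -2.76, SE 0.42, edgeR adjusted p = 0.00808). Fbp2, the muscle fructose bisphosphatase that reverses a step of glycolysis, measured 3.91, 5.31, 7.19 and 5.93 CPM in cKO TAC, against 9.70, 16.5, 15.1 and 16.4 CPM in WT TAC (log2 -1.37, SE 0.21, edgeR adjusted p = 0.00767). In these genes too the groups did not overlap, which is likely for genes chosen for passing under TAC. Fbp2, like Tmem150c below, was named only among the largest falls, for which no overlap was required. The kinase Rps6ka2 (0.635 of WT TAC), Dcakd, a gene named for a coenzyme A kinase domain (0.599), and the membrane protein Tmem150c (0.334) fell likewise.

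**Figure D2:**
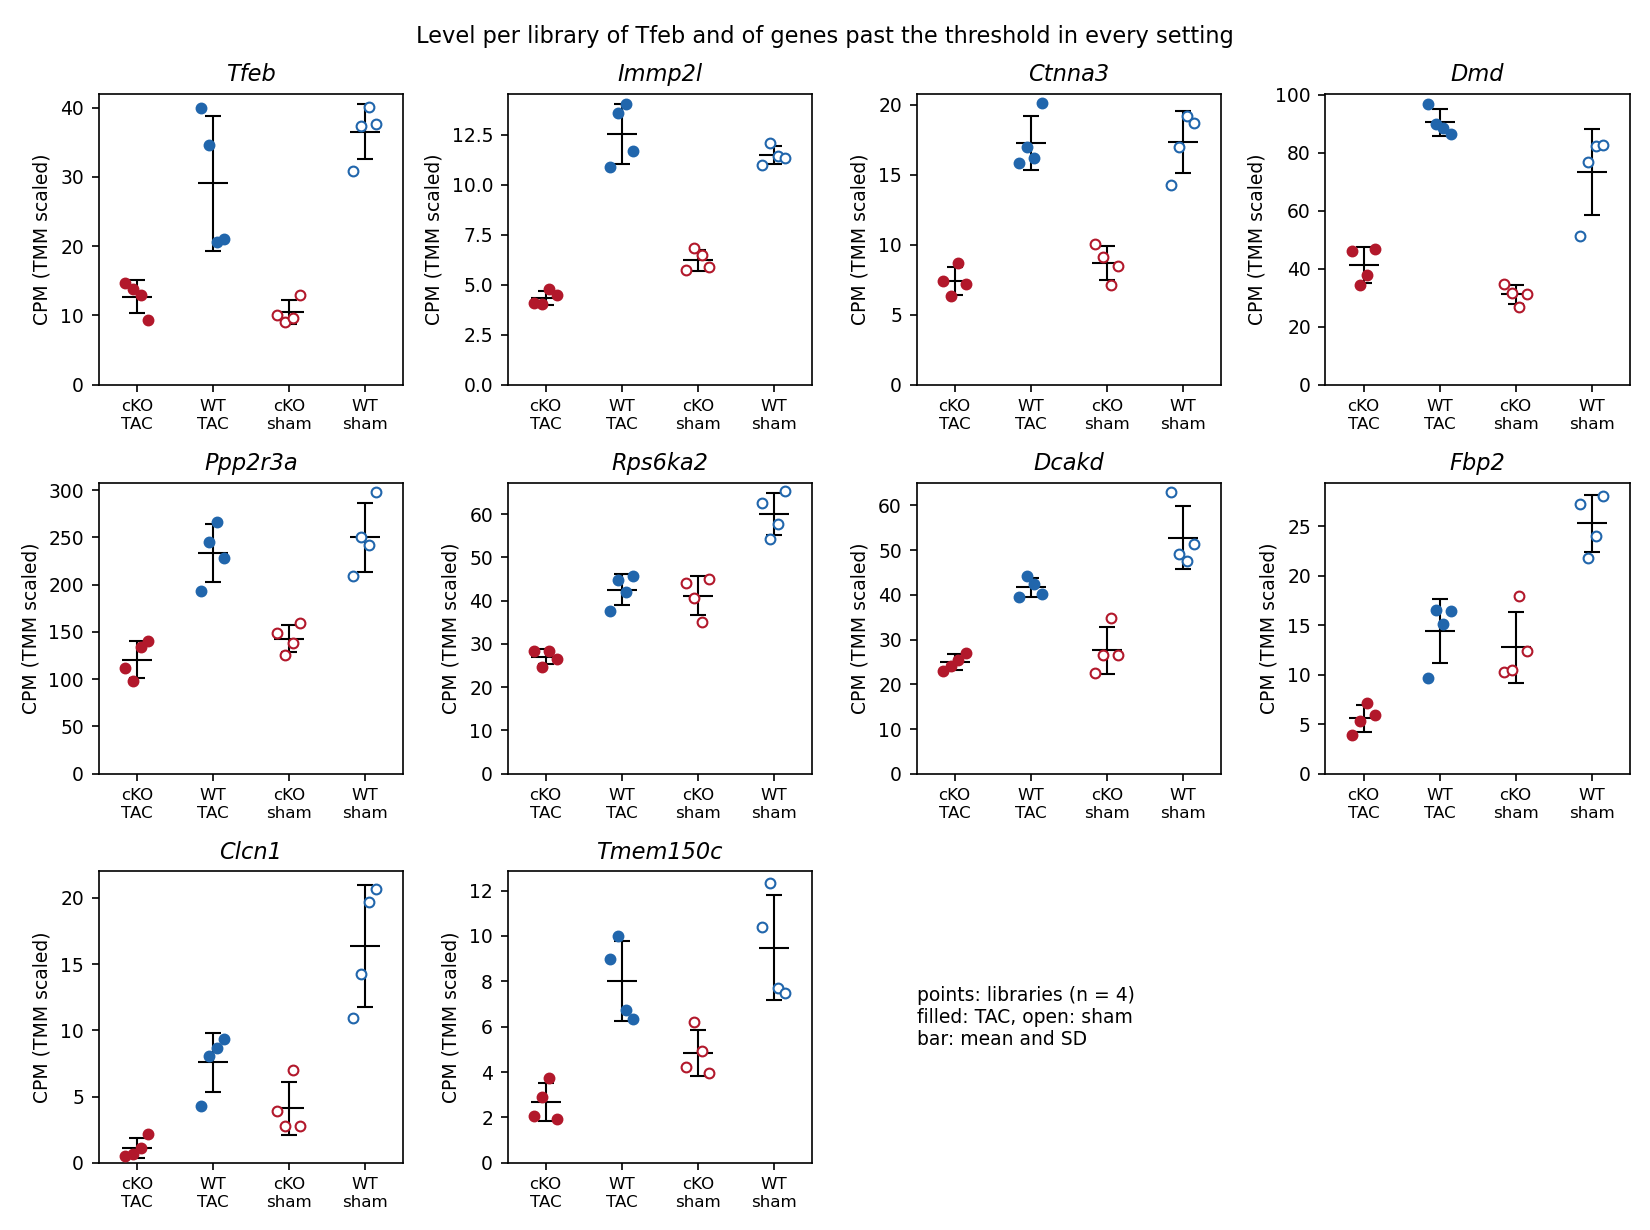
CPM scaled by TMM factors of Tfeb and of genes past the threshold in every setting, in each library of cKO TAC, WT TAC, cKO sham and WT sham (points, filled for TAC and open for sham), with the mean and SD over 4 libraries (black). In each panel the 4 cKO TAC points and the 4 WT TAC points do not overlap, and cKO TAC lies below WT TAC. The genes were chosen for passing under TAC, and for Fbp2 and Tmem150c no overlap was a condition of being named.

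Most of this set also differed between genotypes after sham surgery, in other animals that share no library with the TAC comparison. Ppp2r3a, Rps6ka2 and Dcakd were named only because they passed in both surgeries, so for them this difference was given by the choice. Under sham 178 genes passed (1.17%), 94 higher (0.618%) and 84 lower (0.552%) in cKO, and the groups did not overlap in 4% of genes with cKO above and 3.59% with cKO below. The genes that passed in both surgeries with the same sign numbered 49, which is 18.1% of the TAC calls and 27.5% of the sham calls. Of these 23 were higher and 26 lower in cKO, and no gene passed in opposite directions. Dmd, for example, had a log2 fold change of -1.13 under TAC and -1.23 under sham (edgeR adjusted p = 0.000563), and Ctnna3 had -1.22 and -0.99 (adjusted p = 0.00117). Other genes that passed in both were the mucin-like gene Parm1 (1.60-fold higher under TAC, SE 0.11 log2) and the Ras exchange factor Rasgef1a (2.92-fold, SE 0.27). The adjusted p of Parm1 was 0.0601 without WT TAC replicate 2. Genes that fell in both surgeries spanned a median of 95.0 kb in the GRCm38 annotation, against 21.4 kb for all tested genes. Those longer than 500 kb were Dmd, Immp2l and Ctnna3, 11.5% of the 26, against 0.857% of all tested genes.

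The interaction, which tests whether the genotype difference itself differed between TAC and sham, had no gene past the threshold in edgeR. At an unadjusted p under 0.05 it had 715 genes (4.70%), while DESeq2's Wald test called 3 and limma voom 0. Effects that passed under TAC alone are therefore not shown to be specific to overload. The interaction of Immp2l was -0.65 log2 (SE 0.17), with an edgeR adjusted p of 0.946. Of the 271 genes, 263 (97.0%) had the same sign of fold change under sham, against 65.9% of all tested genes. Their median absolute log2 fold change was 0.64 under TAC and 0.32 under sham, and 237 were larger under TAC. Since the genes were chosen for passing under TAC, the TAC sizes are raised by that choice.

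**Figure D3:**
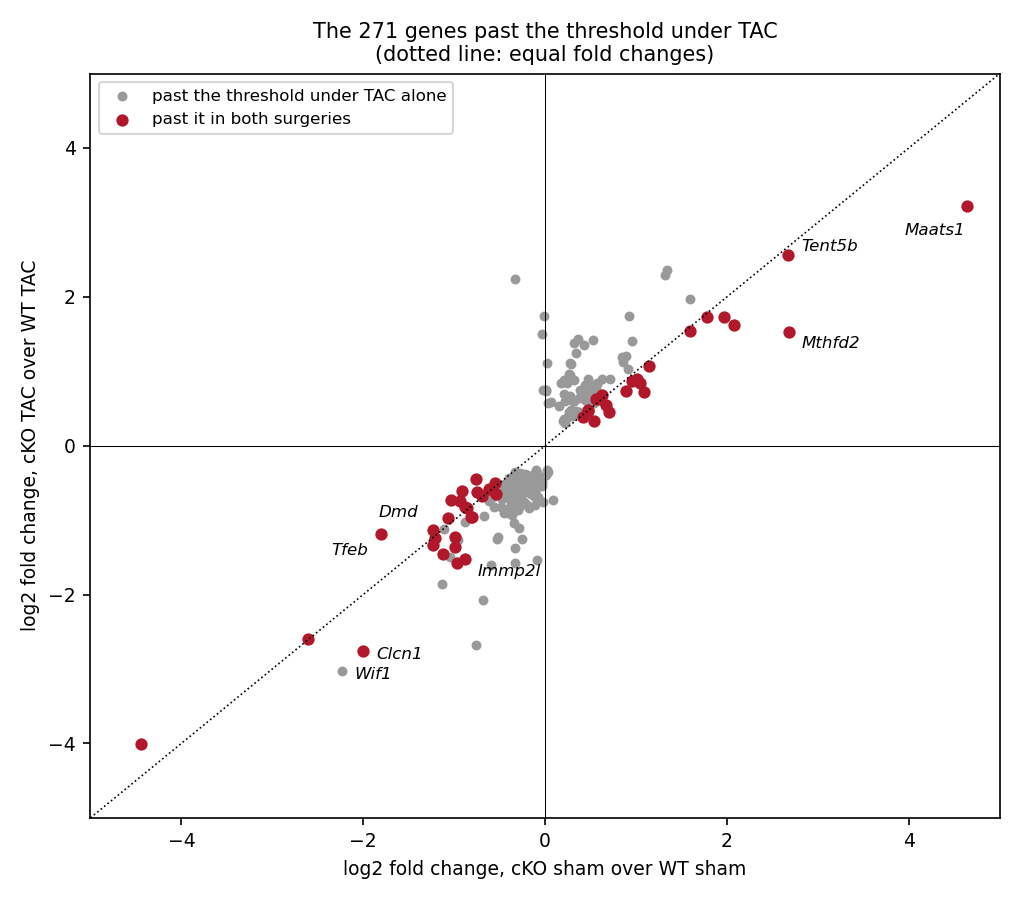
Log2 fold change of cKO TAC over WT TAC (vertical axis) against that of cKO sham over WT sham (horizontal axis) for the 271 genes past the threshold under TAC; red points also passed under sham with the same sign, and the dotted line marks equal fold changes. Of the 271 points, 263 lie in the quadrants of equal sign.

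Genes of mitochondria and fuel use were among the lower genes. Over the union of 8 lists with 286 tested genes, 48 fell and none rose, which is 16.8% against 1.18% of all tested genes, and the median log2 fold change was -0.38 against 0.00. In all, 276 of the 286 lay below 0. Under sham 2 of the 286 fell and none rose, where 0.552% of all tested genes fell, and the median was -0.16. That sham count is too small to set apart from the share over all genes. The count was 37 without WT TAC replicate 4, 80 without WT TAC replicate 1 and 157 without cKO TAC replicate 3. With other processing it was 98 with no filter on low counts, 133 with DESeq2 and 19 with the TAC libraries alone. With the atrial marker sum, which includes Nppa, as a covariate it was 1 and the median was -0.27. With that sum without Nppa, added after the data had been seen, the count was 122 and the median -0.41. No gene of the union passed without WT TAC replicate 2 or 3, and without cKO TAC replicate 1, 2 or 4 it was 3, 1 and 4, while the median stayed between -0.49 and -0.33 over all left-out libraries.

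Among the regulators, Ppargc1a, which encodes PGC-1alpha, showed a wide gap between the groups and did not pass. It measured 58.2, 46.7, 56.2 and 46.9 CPM in cKO TAC, against 104, 120.5, 122 and 138 CPM in WT TAC. The groups did not overlap and the cKO TAC mean was 42.9% of the WT TAC mean (log2 -1.22, SE 0.43, edgeR adjusted p = 0.163). The spread was estimated over all 4 groups, and WT sham replicate 2 held 332 CPM, against 68.0 to 99.8 CPM in the other WT sham libraries. Without WT sham replicate 2 the adjusted p was 0.0130, and in a fit of the TAC libraries alone it was 0.000995. Perm1, a muscle regulator that works with PGC-1 and the ERR receptors, did pass. It measured 176, 241, 251 and 250.3 CPM in cKO TAC, against 345, 392, 359.9 and 320.4 CPM in WT TAC (log2 -0.63, SE 0.12, edgeR adjusted p = 0.0156, and 0.0813 without WT TAC replicate 3). Of 20 tested genes of this regulator list Perm1 was the 1 that fell (5%, against 1.18% of all genes), and none rose. In all, 19 lay below 0, with a median of -0.20.

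Fatty acid genes gave the highest share of calls among the mitochondrial and fuel lists. Of 38 tested, 15 fell (39.5%, against 1.18% of all genes) and none rose. The median log2 fold change was -0.45 under TAC and -0.24 under sham, where none passed. Hadh, the dehydrogenase of the third step of beta-oxidation, measured 164, 216, 299.5 and 231 CPM in cKO TAC, against 321, 444, 461 and 394 CPM in WT TAC (log2 -0.83, SE 0.15, edgeR adjusted p = 0.0156). Etfdh, which hands the electrons of beta-oxidation to ubiquinone, measured 220.2, 256, 320.2 and 259 CPM in cKO TAC, against 346, 451, 455 and 403 CPM in WT TAC. In both genes cKO TAC replicate 3 was the highest of its group and WT TAC replicate 1 the lowest, and the groups still did not overlap. Acsl1, the enzyme that activates fatty acids with coenzyme A, fell to 0.659 of WT TAC (SE 0.11 log2), and Decr1, which handles unsaturated chains, to 0.626 (SE 0.12). Leaving out WT TAC replicate 2 gave adjusted p values of 0.0684 for Hadh, 0.0748 for Etfdh, 0.0684 for Acsl1 and 0.0684 for Decr1. The count of 15 was 13 without WT TAC replicate 4, 2 without cKO TAC replicate 1 or 4, 0 without cKO TAC replicate 2 or WT TAC replicate 2 or 3, and 21 without cKO TAC replicate 3 or WT TAC replicate 1.

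The enzymes that feed and run the citric acid cycle followed. Of 27 tested genes 7 fell (25.9%, against 1.18% of all genes) and none rose (median -0.42). Dlst, a subunit of the 2-oxoglutarate dehydrogenase complex, measured 346, 393, 471 and 388 CPM in cKO TAC, against 554, 635, 648 and 553 CPM in WT TAC (log2 -0.58, SE 0.10, edgeR adjusted p = 0.0123, and 0.0585 without WT TAC replicate 2). Pdhb, a subunit of pyruvate dehydrogenase, stood at 0.668 of WT TAC (SE 0.11 log2), the mitochondrial pyruvate carrier Mpc2 at 0.655 (SE 0.13) and the succinyl-CoA ligase subunit Suclg1 at 0.676 (SE 0.12). Branched-chain amino acid and ketone genes fell in 7 of 21 cases (33.3%, against 1.18% of all genes), and none rose (median -0.38). Dbt and Bckdhb, subunits of the branched-chain keto acid dehydrogenase, stood at 0.641 (SE 0.12) and 0.624 (SE 0.14). Acat1, which splits acetoacetyl-CoA, stood at 0.654 (SE 0.12), and Hibadh of valine breakdown at 0.721 (SE 0.10). Bckdhb passed under sham as well (log2 -0.68 under TAC and -0.69 under sham, edgeR adjusted p = 0.0214 and 0.0144). None of these 8 genes passed without WT TAC replicate 3, with adjusted p values between 0.0569 for Dlst and 0.122 for Hibadh and Mpc2. The citric acid cycle count was then 0 and the branched-chain count 0, while they were 21 and 12 without cKO TAC replicate 3.

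Nuclear genes of the respiratory chain lay mostly below 0 with few single calls. Of 79 tested subunits 78 lay below 0, with a median of -0.45. Among the 79, 11 fell (13.9%, against 1.18% of all genes): 6 of 36 in complex I and 5 of 43 in complexes II to V. None rose. Cox7a1, the muscle form of a cytochrome oxidase subunit, measured 103, 123, 212 and 138 CPM in cKO TAC, against 214, 282, 355 and 230.0 CPM in WT TAC (log2 -0.91, SE 0.21, edgeR adjusted p = 0.0349). The groups only just failed to overlap, with 212 CPM in cKO TAC replicate 3 and 214 CPM in WT TAC replicate 1. The ATP synthase subunit Atp5g3 measured 572, 666, 904 and 649 CPM in cKO TAC, against 949, 1172, 1163 and 957 CPM in WT TAC (log2 -0.60, SE 0.14, edgeR adjusted p = 0.0323), and Ndufs3 of complex I stood at 0.711 of WT TAC (SE 0.12). Ndufs4, Ndufc2 and Ndufab1 of complex I and Atp5f1 and Ndufa4 stood between 0.654 and 0.733. Leaving out WT TAC replicate 2 gave an adjusted p of 0.113 for Cox7a1, 0.12 for Atp5g3 and 0.139 for Ndufs3. The count of 11 was 9 without WT TAC replicate 4, 0 without cKO TAC replicate 1, 2 or 4 or WT TAC replicate 2 or 3, 22 without WT TAC replicate 1 and 61 without cKO TAC replicate 3. The median stayed between -0.56 and -0.38. Of the 13 subunits encoded by mitochondrial DNA, none passed, 12 lay below 0 and the median was -0.28. Mitochondrial ribosomal proteins had 76 of 78 genes below 0 (median -0.31). Among the 78, 5 fell (6.41%, against 1.18% of all genes) and none rose. Their count was 0 without WT TAC replicate 2 and 30 without cKO TAC replicate 3.

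**Figure D4:**
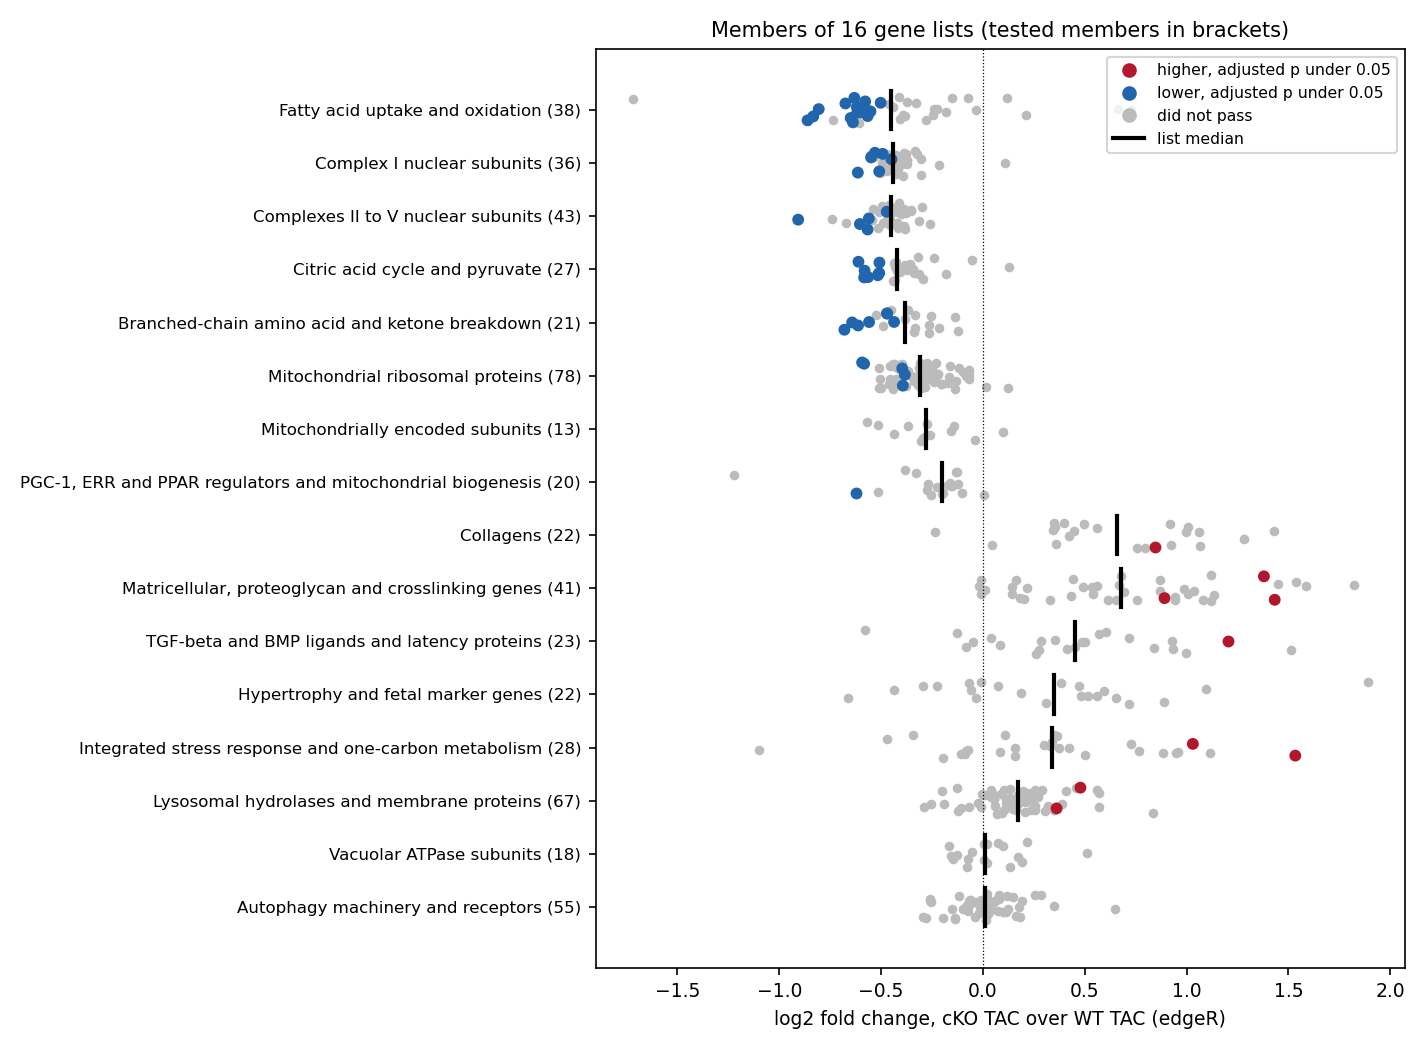
Log2 fold change of cKO TAC over WT TAC (horizontal axis) of every tested member of 16 gene lists (rows, with the number tested); red and blue points passed an adjusted p of 0.05 as higher and lower, grey points did not pass, and the black bar is the list median. Medians of the fuel and respiratory chain lists lie between -0.45 and -0.38, those of collagens and matricellular genes at 0.66 and 0.68, and those of the vacuolar ATPase and autophagy lists at 0.01.

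Marker sums of cell types were compared between the groups, and none passed over the 17 library properties. In RNA of a whole ventricle fewer cells of a type and less RNA per cell cannot be told apart. Cardiomyocyte markers summed to 50790 ± 8010 CPM in cKO TAC and 63670 ± 5780 CPM in WT TAC (exact two-sided permutation p = 0.0571, adjusted p = 0.323), with ranges of 40410 to 59940 and 56470 to 69080. Of these 12 markers 11 lay below 0, and the Z-disc gene Actn2 was the 1 that fell (0.759 of WT TAC, SE 0.09 log2, edgeR adjusted p = 0.0401). Its adjusted p was 0.138 without WT TAC replicate 2. Mitochondrially encoded genes took 16.1%, 16.3%, 20.4% and 16.3% of counts in cKO TAC replicates 1 to 4, against 17.1%, 19.95%, 22.6% and 19.6% in WT TAC (exact p = 0.171). The part of cell mix and mitochondrial share in the level of fuel genes was not tested. By library, the fatty acid genes of cKO TAC replicates 1 to 4 had median log2 levels of -0.74, -0.48, -0.23 and -0.48 relative to the WT TAC mean, and WT TAC replicates 1 to 4 had -0.20, 0.13, 0.11 and -0.04. The respiratory chain subunits stood at -0.70, -0.51, -0.12 and -0.51 in cKO TAC, against -0.12, 0.10, 0.13 and -0.15 in WT TAC. In that block cKO TAC replicate 3 lay level with WT TAC replicates 1 and 4.

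**Figure D5:**
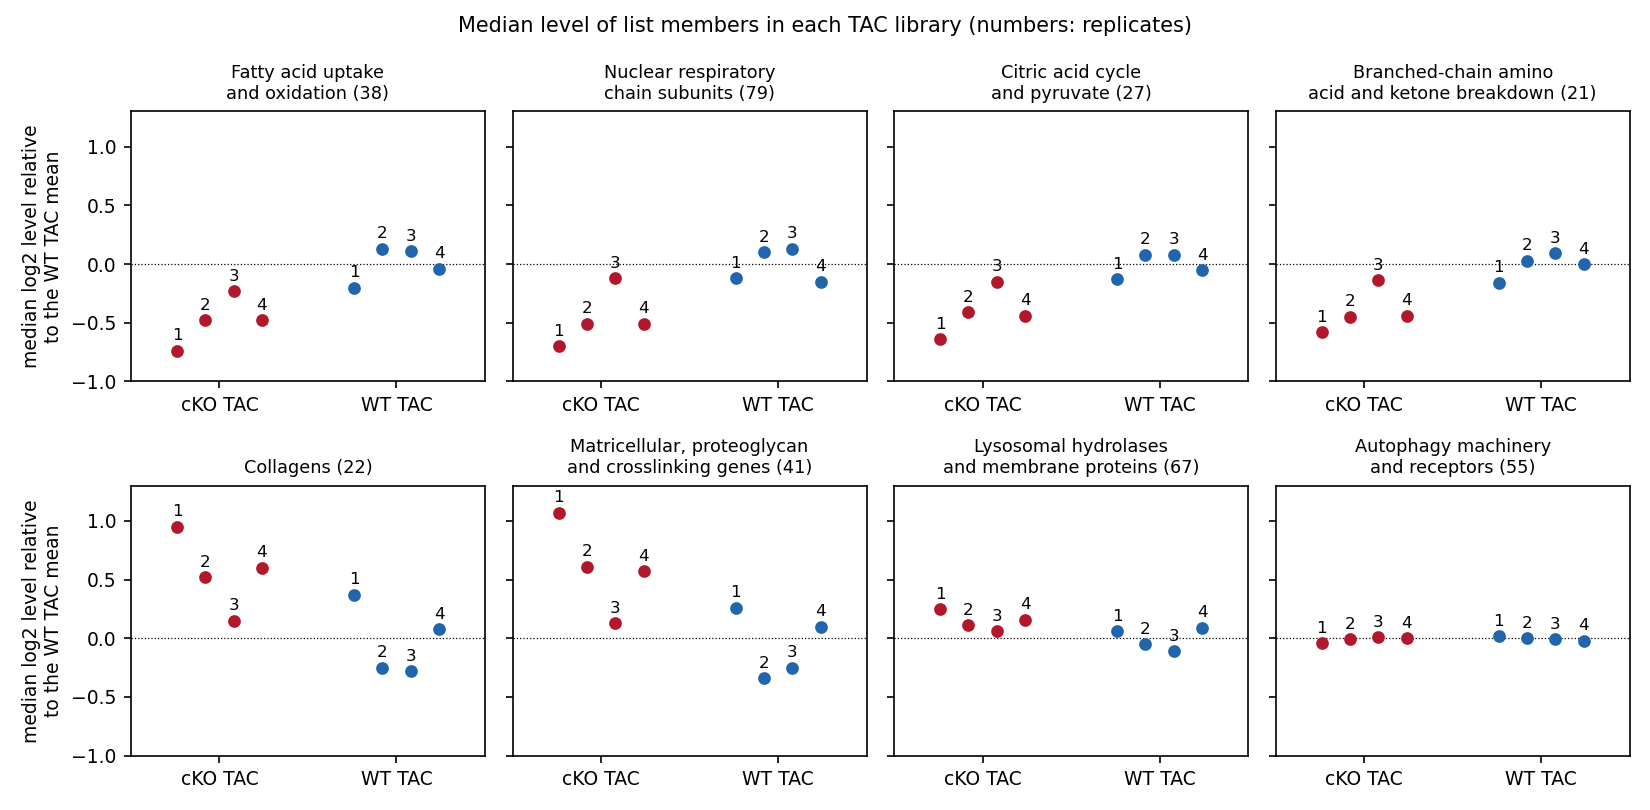
Median over list members of the log2 level (CPM plus 1) in each library relative to the WT TAC mean, for 8 groups of genes; numbers beside the points are replicates, with cKO TAC in red and WT TAC in blue. For fatty acid genes cKO TAC lies between -0.74 and -0.23 and WT TAC between -0.20 and 0.13; for autophagy genes all 8 libraries lie between -0.04 and 0.02.

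Lysosomal and autophagy genes, the best known targets of TFEB, had few calls in cKO TAC, as had all tested genes (1.78% in either direction). Of 154 tested genes in the union of 4 lists, 2 rose (1.3%, against 0.598% of all genes) and none fell (against 1.18%). The median was 0.06 (0.15 with libraries scaled by totals only). Both that rose are lysosomal enzymes. Pld3, a nuclease of the phospholipase D family, measured 55.8, 44.5, 50.1 and 51.4 CPM in cKO TAC, against 40.4, 34.1, 31.4 and 38.8 CPM in WT TAC (log2 0.48, SE 0.10, edgeR adjusted p = 0.0285), and also passed under sham (0.47, adjusted p = 0.0281). Acp2, the lysosomal acid phosphatase, measured 33.1, 32.9, 29.9 and 31.3 CPM in cKO TAC, against 24.2, 23.4, 23.6 and 27.7 CPM in WT TAC (log2 0.36, SE 0.08, edgeR adjusted p = 0.0363). For both the groups did not overlap, and without WT TAC replicate 2 the adjusted p was 0.113 for Pld3 and 0.152 for Acp2. In the lysosomal list alone 2 of 67 genes rose (2.99%) and 55 lay above 0, with a median of 0.17. The vacuolar ATPase and the autophagy list had no call among 18 and 55 genes and medians of 0.01. Of 14 mitophagy genes none passed.

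Classical targets did not pass. The membrane protein Lamp1 averaged 402 ± 18.3 CPM in cKO TAC and 387 ± 29.3 CPM in WT TAC (SD, n = 4; log2 0.05, SE 0.08). The protease Ctsd averaged 624 ± 60.8 CPM in cKO TAC and 523 ± 65.7 CPM in WT TAC (log2 0.26, SE 0.18). The calcium channel Mcoln1 averaged 32.6 ± 1.65 CPM in cKO TAC and 30.5 ± 2.18 CPM in WT TAC (log2 0.09, SE 0.08). For the autophagy receptor Sqstm1 the means were 544 ± 33.7 CPM in cKO TAC and 499 ± 62.5 CPM in WT TAC (log2 0.13, SE 0.10). None of the 4 passed in edgeR (adjusted p between 0.521 for Ctsd and 0.791 for Lamp1), and their groups overlapped. Macrophages, whose Tfeb is left intact by design, hold many lysosomes. Their markers summed to between 689 and 948.4 CPM in cKO TAC and between 524.7 and 683.9 CPM in WT TAC (exact p = 0.0286, adjusted p = 0.323). None of 23 tested markers passed, 20 lay above 0 and none was at 0 in a TAC library. Their part in the level of lysosomal genes was not tested.

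Promoters show where the palindrome of the CLEAR element stood. Of 15201 symbols 10854 had promoters in the RefSeq table of build GRCm38.p6, 13878 sequences that run from 250 bases before to 50 after a start site. CACGTG, which reads the same on both strands, was in 25% of the promoters of tested lysosomal genes and in 9.65% of all. It was in 4.44% of the promoters of genes higher and 8.60% of those of genes lower in cKO TAC. With the flanking base, TCACGTG on either strand (which contains CACGTG) was in 21.7%, 5.61%, 1.11% and 6.99% of the lysosomal, all, higher and lower promoters. TGATGCA, the core of the amino acid response element, was on either strand in 1.96% of all promoters, 4.44% of the higher and 1.61% of the lower. AAGGTCA, a core bound by the ERR receptors, was on either strand in 3.36% of all promoters, 1.11% of the higher, 7.53% of the lower and 7.41% of those of the fuel and respiratory chain lists; this motif was added after the data had been seen. A match is a description of the letters and not of binding.

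Among the promoters shown, Lamp1 and Mcoln1 stand for lysosomal genes that hold the palindrome and did not pass, and Fbp2, Atp5g3 and Tgfb2 for called genes that hold it, lower, lower and higher in cKO TAC. Lamp1 and Mcoln1 were added to these after their values had been seen. Capitals mark CACGTG in each, and in Atp5g3 also TGACCTT, which is AAGGTCA on the other strand. Lamp1 (chr8:13158911-13159210, + strand) has 4 matches, which begin between 61 and 15 bases before the start. Mcoln1 (chr8:3500269-3500568, + strand) has 2, at 71 and 45 bases before it. Fbp2 (chr13:62858351-62858650, - strand) has its match 42 bases, Tgfb2 (chr1:186705940-186706239, - strand) 51 bases and Atp5g3 (chr2:73911277-73911576, - strand) 238 bases before the start, with AAGGTCA at 52. All are from RefSeq, GRCm38.p6, written 5′ to 3′ on the strand of the gene.
Lamp1: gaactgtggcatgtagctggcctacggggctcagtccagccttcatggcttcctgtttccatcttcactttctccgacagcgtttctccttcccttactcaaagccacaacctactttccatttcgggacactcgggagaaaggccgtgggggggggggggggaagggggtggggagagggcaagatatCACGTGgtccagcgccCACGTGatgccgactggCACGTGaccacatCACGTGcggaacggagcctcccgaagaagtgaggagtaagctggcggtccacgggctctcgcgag
Mcoln1: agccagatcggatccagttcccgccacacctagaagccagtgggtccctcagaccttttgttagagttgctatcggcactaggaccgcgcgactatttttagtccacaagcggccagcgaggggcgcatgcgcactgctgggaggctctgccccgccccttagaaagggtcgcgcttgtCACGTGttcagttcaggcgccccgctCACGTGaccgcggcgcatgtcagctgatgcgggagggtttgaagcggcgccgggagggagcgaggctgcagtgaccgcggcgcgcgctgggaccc
Fbp2: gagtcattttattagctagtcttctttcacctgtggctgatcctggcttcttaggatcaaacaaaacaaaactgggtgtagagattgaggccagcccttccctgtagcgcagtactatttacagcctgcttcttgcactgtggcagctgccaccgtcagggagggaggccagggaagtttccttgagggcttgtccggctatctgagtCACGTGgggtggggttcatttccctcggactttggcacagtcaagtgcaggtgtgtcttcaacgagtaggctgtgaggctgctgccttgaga
Atp5g3: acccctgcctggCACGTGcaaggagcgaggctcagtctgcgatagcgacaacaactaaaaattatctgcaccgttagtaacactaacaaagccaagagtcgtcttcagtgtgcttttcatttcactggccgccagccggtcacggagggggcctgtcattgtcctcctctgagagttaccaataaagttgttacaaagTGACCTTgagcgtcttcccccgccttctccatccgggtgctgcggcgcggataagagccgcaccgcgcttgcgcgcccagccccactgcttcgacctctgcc
Tgfb2: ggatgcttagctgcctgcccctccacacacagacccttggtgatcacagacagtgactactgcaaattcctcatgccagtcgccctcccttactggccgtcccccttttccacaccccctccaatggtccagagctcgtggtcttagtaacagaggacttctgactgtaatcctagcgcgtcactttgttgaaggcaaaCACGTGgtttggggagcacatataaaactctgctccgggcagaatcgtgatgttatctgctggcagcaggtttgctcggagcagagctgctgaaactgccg

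Matrix genes lay mostly above 0. In the union of 4 matrix lists 6 of 109 tested genes rose (5.50%, against 0.598% of all genes) and none fell. The median log2 fold change was 0.54 under TAC and 0.26 under sham, and 94 of the 109 lay above 0. Tgfb2, a ligand of the TGF-beta family that drives matrix production, measured 105, 97.8, 53.3 and 79.1 CPM in cKO TAC, against 48.7, 25.1, 31.3 and 40.2 CPM in WT TAC (log2 1.20, SE 0.24, edgeR adjusted p = 0.0287). Ccn5, a matricellular protein, measured 96.3, 61.2, 35.6 and 38.6 CPM in cKO TAC, against 18.9, 19.3, 18.2 and 32.4 CPM in WT TAC (log2 1.38, SE 0.32, edgeR adjusted p = 0.0472). Loxl3, which crosslinks collagen, measured 109, 52.0, 29.6 and 48.7 CPM in cKO TAC, against 29.3, 14.6, 17.8 and 26.8 CPM in WT TAC (log2 1.43, SE 0.34, edgeR adjusted p = 0.0485). In all 3 the lowest cKO TAC library was replicate 3, which in Tgfb2, Ccn5 and Loxl3 lay just above the highest WT TAC library. Fbln2, a basement membrane protein (1.86-fold, SE 0.22 log2), Adamts2, which trims procollagen (1.86-fold, SE 0.20), and Col16a1 (1.79-fold, SE 0.19) also rose, as did the adhesion protein Svep1 of the matrix (2.18-fold, SE 0.21) outside these lists. When WT TAC replicate 3 was left out, the adjusted p was 0.122 for Tgfb2, 0.161 for Ccn5, 0.164 for Loxl3, 0.159 for Fbln2, 0.142 for Adamts2, 0.139 for Col16a1 and 0.093 for Svep1.

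The count of 6 rested on single libraries. It was 0 without cKO TAC replicate 1, 2 or 4 or without WT TAC replicate 2 or 3, 5 without WT TAC replicate 4, 17 without WT TAC replicate 1 and 31 without cKO TAC replicate 3, while the median stayed between 0.39 and 0.65. With other processing it was 27 with DESeq2, 0 with no filter on low counts and 0 with the TAC libraries alone. With the atrial marker sum, which includes Nppa, as a covariate it was 0 and the median was 0.32. With that sum without Nppa, added after the data had been seen, the count was 28 and the median 0.64. Periostin (Postn), made by activated fibroblasts, measured 1587, 1118, 610.3 and 968 CPM in cKO TAC, against 617, 236, 329 and 384 CPM in WT TAC, and did not pass (log2 1.45, SE 0.46, edgeR adjusted p = 0.114). Col1a1 measured 1512, 1075, 699.7 and 1299 CPM in cKO TAC, against 872, 493, 439 and 609.5 CPM in WT TAC (log2 0.93, SE 0.28, edgeR adjusted p = 0.0943). In both genes cKO TAC replicate 3 lay below WT TAC replicate 1. Fibroblast markers summed to 5381 ± 924 CPM in cKO TAC and 3879 ± 867 CPM in WT TAC, with ranges of 4245 to 6500 and 3196 to 5097 (exact p = 0.0571, adjusted p = 0.323). This sum includes the collagens Col1a1 and Col3a1, so it is not separate from the matrix genes. Col3a1 measured 1220 to 2660 CPM in cKO TAC and 768 to 1220 CPM in WT TAC. The groups overlapped in Gsn (588 to 920 against 653 to 1740 CPM) and in Dcn (503 to 594 against 410 to 839 CPM). Of these 18 markers 14 lay above 0, none was at 0 in a TAC library, and Pdgfra, the receptor that marks cardiac fibroblasts, was the 1 that rose (1.51-fold, SE 0.13 log2, edgeR adjusted p = 0.0303, and 0.124 without WT TAC replicate 3). Their part in the level of matrix genes was not tested.

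Of 22 tested markers of hypertrophy none passed, with a median of 0.35 under TAC and 0.37 under sham. All cKO TAC libraries lay above WT TAC in 2 (9.09%, against 4.89% of all genes) and below in 1 (4.55%, against 5.11%). Nppa, the atrial natriuretic peptide that overloaded ventricles re-express, measured 1933, 1489.7, 960.4 and 1509 CPM in cKO TAC, against 642, 162, 250.2 and 533 CPM in WT TAC. Nppb, the B-type peptide, measured 927, 1126, 794 and 769 CPM in cKO TAC, against 707, 459, 458 and 329 CPM in WT TAC. In both peptides the groups did not overlap, but neither passed (log2 1.89, SE 1.07 and edgeR adjusted p = 0.404 for Nppa; log2 0.89, SE 0.41 and 0.288 for Nppb). Nppa is also an atrial marker, and WT sham replicate 3, which entered the spread, held 1221 CPM against 14.1 to 54.8 CPM in the other WT sham libraries. In a fit of the TAC libraries alone the adjusted p was 0.0831 for Nppa and 0.0747 for Nppb. Myh7, the slow myosin of the fetal ventricle, measured 3206, 2531, 1568 and 3209.6 CPM in cKO TAC, against 1971, 891, 921 and 1135 CPM in WT TAC (log2 1.10, SE 0.28, edgeR adjusted p = 0.0577). Its groups overlapped at cKO TAC replicate 3 and WT TAC replicate 1. The adult myosin Myh6 (log2 -0.27, SE 0.13), the calcium pump Atp2a2 (log2 -0.41, SE 0.13, edgeR adjusted p = 0.101) and skeletal actin Acta1 (log2 0.19, SE 0.69) did not pass. The sign of Acta1 turned when WT TAC replicate 4 or cKO TAC replicate 2 was left out (-0.03 and -0.02).

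Genes of catecholamine, endothelin and angiotensin signalling gave 3 rises among 17 tested (17.6%, against 0.598% of all genes) and no fall. Grk5, the kinase that desensitizes beta-adrenergic receptors, measured 98.5, 106, 97.8 and 97.3 CPM in cKO TAC, against 64.9, 56.2, 54.3 and 59.8 CPM in WT TAC. All cKO TAC libraries lay close together and well above WT TAC (log2 0.76, SE 0.14, edgeR adjusted p = 0.0156, and 0.0813 without WT TAC replicate 3). Edn1, which encodes the vasoconstrictor endothelin-1, measured 10.5, 7.39, 5.13 and 6.65 CPM in cKO TAC, against 4.19, 3.51, 3.24 and 4.43 CPM in WT TAC (log2 0.95, SE 0.22, edgeR adjusted p = 0.0346). Ace, the angiotensin-converting enzyme of endothelium, rose 1.67-fold (SE 0.17 log2, edgeR adjusted p = 0.0401), with cKO TAC replicate 3 below WT TAC replicate 1. Without WT TAC replicate 3 the adjusted p was 0.141 for Edn1 and 0.159 for Ace. Endothelial markers had no call among 18 genes (median -0.03), and their sums gave an exact permutation p of 0.943.

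The list of the integrated stress response with one-carbon metabolism had 28 tested genes, of which 2 rose (7.14%, against 0.598% of all genes) and none fell, with a median of 0.34. Under sham 7 rose, against 0.618% of all genes, and none fell, with a median of 0.37. Mthfd2, the mitochondrial folate enzyme, measured 11.7, 29.4, 17.2 and 17.4 CPM in cKO TAC, against 6.38, 6.04, 6.54 and 7.11 CPM in WT TAC (log2 1.53, SE 0.32, edgeR adjusted p = 0.0303). The groups did not overlap. Pycr1, an enzyme of proline synthesis in mitochondria, rose 2.04-fold (SE 0.24 log2, edgeR adjusted p = 0.0351). Asns, which makes asparagine, measured 4.35, 12.7, 6.88 and 7.74 CPM in cKO TAC, against 3.65, 4.13, 4.21 and 2.68 CPM in WT TAC, and did not pass (log2 1.11, SE 0.28, edgeR adjusted p = 0.0530). Mthfd2 was at log2 2.69 and Asns at 2.17 under sham, and their interactions did not pass (edgeR adjusted p = 0.946 for Mthfd2). Without WT TAC replicate 4 the adjusted p was 0.0505 for Mthfd2 and 0.0598 for Pycr1. The highest edgeR adjusted p with 1 library left out was 0.122 for Mthfd2 and 0.152 for Pycr1.

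Glucose genes went both ways, with 1 rise (3.03%, against 0.598% of all genes) and 3 falls (9.09%, against 1.18%) among 33 tested and a median of -0.09. Hexokinase 1 (Hk1), which traps glucose in the cell, measured 298, 282, 283 and 295 CPM in cKO TAC, against 229, 223, 201 and 224 CPM in WT TAC (log2 0.40, SE 0.09, edgeR adjusted p = 0.0311, and 0.0539 without WT TAC replicate 4). The highest edgeR adjusted p of Hk1 with 1 library left out was 0.135. The lactate dehydrogenase subunit Ldhb (0.672 of WT TAC, SE 0.13 log2) and Ugp2, which makes UDP-glucose for glycogen (0.707, SE 0.13), fell. Their adjusted p values without WT TAC replicate 2 were 0.113 for Ldhb and 0.123 for Ugp2. Single genes passed in several other lists. They were the p53 target Phlda3 (1.65-fold, SE 0.18) and the ER chaperone P4hb (0.38 log2, SE 0.09), which rose, and the superoxide dismutase Sod2 (0.699, SE 0.11), the adenylate kinase Ak1 (0.720, SE 0.12), the squalene synthase Fdft1 (0.607, SE 0.18), the chaperonin Hspd1 (0.739, SE 0.10) and the inner membrane protease Oma1 (0.710, SE 0.10), which fell. None of these 7 passed without WT TAC replicate 2 (adjusted p between 0.0887 for Oma1 and 0.169 for P4hb). No gene passed among 34 of the cell cycle, 37 of the interferon response, 80 cytosolic ribosomal proteins, 38 proteasome subunits, 19 of the circadian clock and 15 heat shock proteins.

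The largest rises among genes with at least 5 CPM and no overlap, beyond those above, lay outside the lists. Tent5b, a poly(A) polymerase, measured 26.9, 26.2, 7.69 and 13.1 CPM in cKO TAC, against 5.05, 1.38, 2.59 and 3.38 CPM in WT TAC (log2 2.56, SE 0.44, edgeR adjusted p = 0.0156), and stood at log2 2.68 under sham. Tnnt3, the troponin T of fast skeletal muscle, was led by cKO TAC replicate 1, with 19.4, 2.91, 3.19 and 7.44 CPM in cKO TAC, against 2.72, 1.45, 0.971 and 1.28 CPM in WT TAC (log2 2.35, SE 0.52, edgeR adjusted p = 0.0346). The potassium channel Kcnj14 rose by 1.73 log2 (SE 0.36), the kelch-like gene Klhl29 2.84-fold (SE 0.35 log2), Lad1 by 1.35 (SE 0.33) and Fam122b by 1.24 (SE 0.22). Without WT TAC replicate 3 the adjusted p was 0.0813 for Tent5b, 0.139 for Tnnt3, 0.122 for Kcnj14, 0.148 for Klhl29, 0.141 for Lad1 and 0.0569 for Fam122b.

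Among the largest falls, the Wnt inhibitor Wif1 owed much to 1 library. It measured 0.378, 0.379, 2.25 and 1.209 CPM in cKO TAC, against 2.92, 4.81, 5.25 and 21.3 CPM in WT TAC (log2 -3.02, SE 0.70, edgeR adjusted p = 0.0455), and the high value was WT TAC replicate 4. Without that library the log2 fold change was -2.03 and the adjusted p 0.0649. The highest edgeR adjusted p of Wif1 with 1 library left out was 0.164. The ephrin Efnb3 measured 20.1, 21.9, 46.5 and 26.1 CPM in cKO TAC, against 52.4, 108, 74.7 and 80.1 CPM in WT TAC (log2 -1.46, SE 0.26, edgeR adjusted p = 0.0156). The organic cation transporter Slc22a3 stood at 0.354 of WT TAC (SE 0.27 log2), the muscle gene Smco1 fell by 1.37 log2 (SE 0.26), the glucose transporter Slc2a12 by 1.26 (SE 0.29) and the prolactin receptor Prlr by 1.24 (SE 0.28). Without WT TAC replicate 3 the adjusted p was 0.071 for Efnb3, 0.071 for Slc22a3, 0.0901 for Smco1, 0.139 for Slc2a12 and 0.124 for Prlr.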

How the data were processed

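RNA of left ventricles was sequenced in 16 libraries, 4 each of cKO TAC, WT TAC, cKO sham and WT sham. The deposited values are raw read counts per gene, and per the submitters' processing notes they rest on build GRCm39 and on featureCounts 2.0.6, with HISAT2 2.0.5 as the aligner named there beside SAMtools 1.21 and the trimmer fastp 0.22.0. The strand setting and annotation are not given in the sources used here, so overlapping and antisense genes cannot be told apart. Of 57186 gene IDs, 51880 matched a symbol in a GRCm38 annotation (99.52% of counts).

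The main test was edgeR 4.0.16 (R 4.3.3): filterByExpr, TMM scaling and the quasi-likelihood test in 1 fit of all 16 libraries with 12 residual degrees of freedom, with Benjamini-Hochberg adjustment over 15206 genes and a threshold of 0.05. CPM values carry the TMM factors. DESeq2 1.42.0 and limma 3.58.1 (voom) were alternatives, as were other scalings, filters, covariates, the TAC libraries alone and each library left out. Library totals of 12946878 to 16347388 limit precision for low genes. In simulated counts (14921 genes, cKO TAC against WT TAC) the test recovered 46.2%, 54.5% and 87.5% of genes changed by 0.6, 1 and 2 log2, and 5.43% of calls were unchanged genes. These counts were drawn independently for each library, with no library set apart as WT TAC replicate 4 was. The simulated rates therefore do not measure the share of false calls in the real libraries. Nothing says which animals or litters the replicates came from beyond the word biological, so p-values measure the spread between these samples.

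The genes named were 18 fixed ones, the 12 largest rises and falls with at least 5 CPM and no overlap, up to 4 called members of each of 58 lists and up to 12 genes called in both surgeries. The comparison, its members and the lists were chosen with earlier results of these data known. Library properties were compared by exact two-sided permutation tests. Some of the genes counted here are not reported by name.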

Additional observations from a re-analysis of the deposited data

Results flagged for a closer look

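Among 228 groups of 4 libraries examined, 13 (5.7%) held a library set apart from the other 3 by a gap that Dixon's test marks at its 95% level, which chance does for about 1 in 20 groups. WT TAC replicate 4 held 3 of them: 1054 CPM of atrial markers other than Nppa against 64.95 to 73.18 CPM in the others, 21.3 CPM of the Wnt inhibitor Wif1 against 2.92 to 5.25 CPM, and 32.4 CPM of the matricellular gene Ccn5 against 18.2 to 19.3 CPM. WT TAC replicate 1 was high in Des (4012 CPM against 2612 to 2755 CPM) and low in the calcium pump Atp2a2 (8921 CPM against 11090.0 to 11379 CPM). cKO TAC replicate 1 was low in the Z-disc gene Actn2 (1853 CPM against 2062 to 2079 CPM) and in Perm1 (176 CPM against 241 to 251 CPM) and high in Lamp1 (429 CPM against 390.0 to 395 CPM). cKO TAC replicate 2 was high in Grk5 (106 CPM against 97.3 to 98.5 CPM) and low in Mitf (23.1 CPM against 26.7 to 27.4 CPM). cKO TAC replicate 3 was high in its share of mitochondrially encoded counts (20.43% against 16.09% to 16.31%) and in the complex I gene Ndufc2 (96.8 CPM against 74.0 to 77.5 CPM), and low in Sqstm1 (494 CPM against 556 to 568 CPM). What set these libraries apart was not tested.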

How the results depend on the processing

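The number of genes called depended on the processing, while none of the 271 changed sign in any setting in which it was tested. These genes were chosen for passing, and the settings share most of their libraries. A steady sign was therefore likely beforehand. The TAC count of 271 became 438 with no filter on low counts, 838 with DESeq2, 28 with the atrial marker sum as a covariate, 677 with that sum without Nppa (added after the data had been seen), 152 with the TAC libraries alone and 165 without WT TAC replicate 4 and WT sham replicate 3, also added later. Leaving out each library in turn gave 13 to 912 calls under TAC, 59 to 222 under sham, 9 to 92 in both surgeries and 0 for the interaction. The 178 sham calls became 546 with DESeq2. The 49 genes called in both surgeries became 168 with DESeq2, 17 with the atrial covariate and 77 with the covariate without Nppa. The interaction count of 0 became 3 with DESeq2 and 2 without the libraries richest in atrial transcripts. Tfeb kept its direction throughout, at -1.33 to -1 log2 with a library left out and -1.19 with the TAC libraries alone, where its edgeR adjusted p was 0.0543. Tfe3 changed sign with library totals only (0.083), without both atrial-rich libraries (0.0015) and without cKO TAC replicate 3 (0.063), within a range of -0.075 to 0.063 with a library left out. Acta1 changed sign with the atrial covariate (-0.215), without both atrial-rich libraries (-0.022), without WT TAC replicate 4 (-0.033) and without cKO TAC replicate 2 (-0.022), within a range of -0.033 to 0.563. The cause of these shifts was not tested. Replicate numbers are shared between groups, and the main test did not take them as pairs. Same-numbered TAC libraries deviated together with correlations of 0.176, -0.008, 0.225 and 0.049, and differently numbered ones with -0.281 to 0.195. These correlations cannot settle whether the numbers are pairs. With the replicate block there were 302 calls, 235 of them among the 271. Depth limits genes of low level most.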
